A study of Mus musculus with 48 samples.

Results

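The subunits of the GABA-A receptor measured here were *Gabra2*, *Gabra3*, *Gabra4*, *Gabra5*, *Gabrb1*, *Gabrb2* and *Gabrd*, 7 of the 52636 genes in the deposited table and 7 of the 19 subunit genes it holds. They were chosen by symbol, and each symbol matched 1 Ensembl gene. RNA sequencing had been run on punches of the amygdala from 48 female mice aged 8 to 11 weeks of the strain C57BL/6NTac-Brd1, with 8 mice in each of 6 groups. WT mice carried both working copies of *Brd1*, which encodes a bromodomain protein of histone acetyltransferase complexes, and *Brd1*+/- mice were heterozygous for a targeted deletion of exons that had been flanked by loxP sites. Mice of each genotype had received saline as vehicle or 1 of 2 antidepressants, the tricyclic imipramine (IMN) at 10 mg/kg or the serotonin reuptake inhibitor fluoxetine (FLX) at 5 mg/kg. Per the study's methods, every mouse, vehicle controls included, was injected on consecutive days, went through tail suspension, open field and forced swim tests, and was killed after the last of them. The levels were given as TPM, a share of each library's transcripts corrected for gene length and scaled to the same total, so that genes can be ranked against each other within a library.

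GABA-A receptors are pentameric chloride channels that carry most fast inhibition in the brain. Most contain alpha, beta and gamma subunits and sit at synapses, where benzodiazepines act at the interface of an alpha and the gamma subunit. The delta subunit takes the place of gamma in receptors outside synapses, which often contain *Gabra4* in the forebrain, answer to ambient GABA and lack the classical benzodiazepine site. Spiny projection neurons of the striatum are known for tonic inhibition by delta-containing receptors, and the amygdala for the alpha subunits encoded by *Gabra2* and *Gabra3*.

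The alpha subunits differ at the residue that decides whether classical benzodiazepines bind, which is why its surroundings are shown for the 4 alpha members. The stretches below are 33 bases of the coding strand from the principal GENCODE M21 transcript (GRCm38), 5′ to 3′, and the capitals mark the codon that alignment of the translated alpha subunits placed at this residue.
Gabra2: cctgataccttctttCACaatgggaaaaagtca
Gabra3: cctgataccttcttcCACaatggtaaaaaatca
Gabra4: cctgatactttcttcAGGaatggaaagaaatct
Gabra5: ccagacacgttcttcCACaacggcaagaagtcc
The codon stands for histidine in *Gabra2* (chr5:71014505-71014507, exon 5), *Gabra3* (chrX:72501168-72501170, exon 5) and *Gabra5* (chr7:57488891-57488893, exon 5), and for arginine in *Gabra4* (chr5:71641152-71641154, exon 4), all on the minus strand. Over the whole protein *Gabra4* shared 61.2% of aligned residues with *Gabra2*, 61.8% with *Gabra3* and 61.2% with *Gabra5*, whereas *Gabra2*, *Gabra3* and *Gabra5* shared 72.0% to 73.8% with each other.

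Several members lie near other subunit genes (positions in GRCm38). *Gabra2* (ENSMUSG00000000560, chr5:70957597-71095849, minus strand), *Gabra4* (ENSMUSG00000029211, chr5:71569749-71658308, minus strand) and *Gabrb1* (ENSMUSG00000029212, chr5:71658113-72149037, plus strand) are neighbours. *Gabrb2* (ENSMUSG00000007653, chr11:42419757-42629028, plus strand) lies near *Gabra6*. *Gabra5* (ENSMUSG00000055078, chr7:57407672-57510059, minus strand), *Gabra3* (ENSMUSG00000031343, chrX:72432681-72656848, minus strand) and *Gabrd* (ENSMUSG00000029054, chr4:155384980-155398112, minus strand) are on other chromosomes. *Gabra4* and *Gabrb1* are transcribed from opposite strands and share 46 exonic bases at their starts, 0.76% of the exonic length of *Gabra4*. *Gabra5* shares 148 exonic bases (4.98%) with the antisense gene Gm9962. Whether reads were counted by strand is not stated, so reads from these bases are uncertain.

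The punches were not alike in tissue. Summed over 9 markers of striatal projection neurons, among them *Drd1*, *Drd2* and *Adora2a*, libraries held between 203 and 11930 TPM, with a median of 1025, and no marker was at 0 in any library. In the 4 libraries with the highest striatal level (WT vehicle 3, *Brd1*+/- FLX 2, *Brd1*+/- IMN 2 and *Brd1*+/- vehicle 1) *Adora2a* reached 452 to 547 TPM, while *Slc17a7*, the vesicular glutamate transporter of pallial neurons such as those of the basolateral amygdala, was at 1.87 to 10.0 TPM. The pallial marker was thus nearly missing there, against the label of amygdala as far as its basolateral part goes. It was as low in some libraries poor in striatal markers, such as WT FLX 1 (3.42 TPM, *Adora2a* 2.18) and WT IMN 3 (6.16 TPM, *Adora2a* 3.89). The labels give amygdala for every library, while the series' design text names striatum and anterior cingulate cortex, and whether any punch came from those regions cannot be told from the labels. *Adora2a* exceeded 100 TPM in 13 libraries, without which the members' differences between groups are also given, 2 of WT vehicle, 3 of *Brd1*+/- vehicle, 2 of WT IMN, 3 of *Brd1*+/- IMN, 1 of WT FLX and 2 of *Brd1*+/- FLX. Markers of amygdala nuclei (7 genes, among them *Prkcd* and *Rspo2*) summed to between 303 and 1608 TPM, with a median of 898. Most of this came from *Sst*, a marker of GABA neurons as well, with a median of 755 TPM. The medians of *Prkcd* and *Rspo2* were 26.5 and 1.45 TPM. Those of thalamic and hypothalamic neurons (8 genes, among them *Slc17a6* and *Otp*) summed to between 5.05 and 233 TPM, with 5 of the 8 at 0 in some libraries. In bulk tissue fewer cells of a type and less RNA per cell cannot be told apart. The targeted gene followed the labels: *Brd1* had group medians of 33.1 to 37.9 TPM in WT mice and 22.8 to 26.2 TPM in *Brd1*+/- mice, and its difference over the 3 treatments was -0.54 on the log2 scale (SE 0.06, limma adjusted *p* = 4.02e-07). Within single treatments its limma adjusted *p* was under 0.05 in FLX mice only. That was lost without 11 of 16 libraries, each left out in turn. In vehicle and IMN mice the test thus missed the targeted gene, so missing a member there does not show that it was unchanged.

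Every member was above 0 in every library and passed the filter on low values. Over the 48 libraries the mean level was 89.1 ± 27.1 TPM for *Gabra2*, 85.6 ± 35.1 for *Gabra3*, 78.7 ± 22.3 for *Gabrb2*, 59.2 ± 37.7 for *Gabra4*, 43.3 ± 16.5 for *Gabra5*, 38.3 ± 49.2 for *Gabrd* and 36.8 ± 10.2 for *Gabrb1* (SD, n = 48). The ranges of neighbours in this order overlapped throughout, so it is an order of means and not of single mice. *Gabra3* was the highest of the 7 in 15 libraries, *Gabra2* in 14, *Gabrb2* and *Gabrd* in 8 each and *Gabra4* in 3. *Gabrd* was also the lowest of the 7 in 34 libraries.

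The spread within groups differed widely between members. The SD of log2(TPM + 0.1) within groups was 2.17 for *Gabrd*, and 2.29% of the 19222 genes with a mean of at least 1 TPM had a larger one. It was 0.98 for *Gabra3*, 0.83 for *Gabra4*, 0.62 for *Gabra5*, 0.47 for *Gabrb1*, 0.40 for *Gabra2* and 0.38 for *Gabrb2*, against a median of 0.38 over those genes. The 6 groups accounted for 25.2% of the variance of *Gabrb2*, 15.5% of that of *Gabra4* and 13.9% of that of *Gabra2*, and for 1.55% to 5.54% in the other 4 members. The median over all those genes was 11.1%, and *Brd1* itself reached 66.3%.

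**Figure D1:**
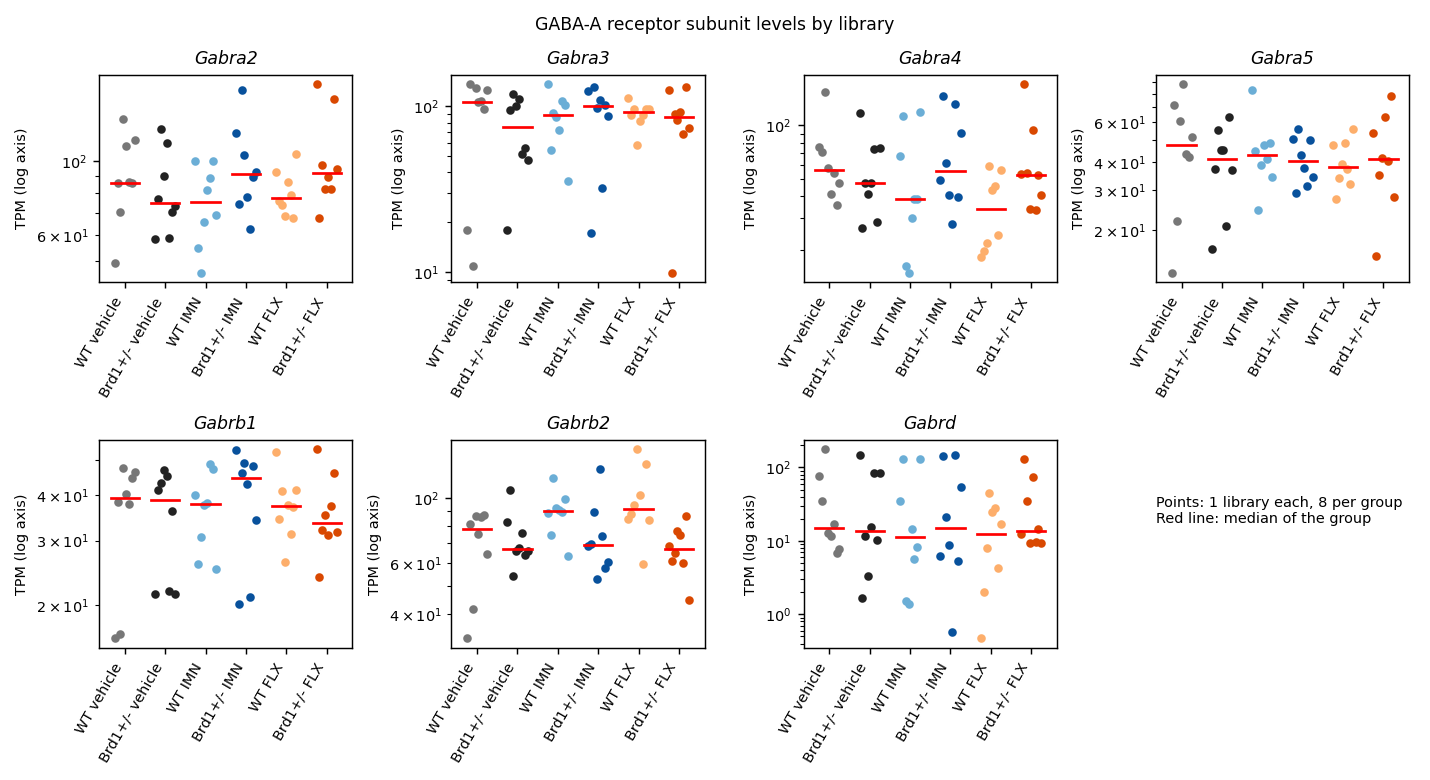
Level of each member in TPM (log axis) in each of the 48 libraries by group, 1 point per library and the median of 8 as a red line. *Gabrd* runs from 0.473 to 177 TPM, and the points of all 6 groups overlap for every member.

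The alpha members were examined first. *Gabra2*, which serves mainly synaptic receptors of the forebrain, ranged from 46.2 to 170 TPM, and its group medians from 74.9 TPM in *Brd1*+/- vehicle mice to 92.0 TPM in *Brd1*+/- FLX mice. *Gabra5*, known from extrasynaptic receptors of the hippocampus, ranged from 12.9 to 88.3 TPM with group medians of 38.1 to 47.4 TPM. Every pair of groups overlapped for both genes.

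*Gabra3*, the alpha subunit of many amygdala and brainstem neurons, had its lowest value, its median and its highest at 11.0, 107 and 136.5 TPM in WT vehicle mice. The same 3 values were 18.1, 75.3 and 118 TPM in *Brd1*+/- vehicle mice. With IMN they were 35.6, 88.9 and 136.3 TPM in WT mice and 17.4, 100.3 and 131 TPM in *Brd1*+/- mice. With FLX they were 58.6, 92.4 and 112 TPM in WT mice and 9.93, 86.4 and 131 TPM in *Brd1*+/- mice. The lowest libraries fell far below the median in each group but WT FLX, which had the narrowest range, and all groups overlapped.

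*Gabra4*, the usual partner of delta in the forebrain, ran from 35.5 over a median of 56.0 to 154.98 TPM in WT vehicle mice. In *Brd1*+/- vehicle mice it ran from 26.7 over 47.6 to 117 TPM. With IMN it ran from 14.8 over 38.6 to 118 TPM in WT mice and from 27.9 over 55.3 to 147 TPM in *Brd1*+/- mice. With FLX it ran from 18.1 over 33.7 to 59.3 TPM in WT mice and from 33.6 over 52.9 to 171 TPM in *Brd1*+/- mice. WT FLX mice had the lowest median and lacked the high libraries that every other group held, and their values still overlapped those of each group.

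The share of *Gabra4* among the 6 alpha subunits moved from 3.40% in WT IMN 3 to 49.6% in *Brd1*+/- FLX 2, with a median of 10.6%. *Gabra3* took between 2.88% and 26.7%, *Gabra2* between 9.70% and 32.3% and *Gabra5* between 4.45% and 17.6%. *Gabra6*, the alpha subunit of cerebellar granule cells, took at most 0.735%. *Brd1*+/- FLX 2 held both the highest share of *Gabra4* and the lowest shares of *Gabra3* and *Gabra5*.

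Of the beta members, *Gabrb1* ranged from 16.2 to 53.5 TPM with group medians of 33.6 to 44.5 TPM. *Gabrb2*, a beta subunit of many synaptic receptors, ran from 33.1 over a median of 78.4 to 87.3 TPM in WT vehicle mice and from 54.2 over 66.8 to 107 TPM in *Brd1*+/- vehicle mice. With IMN it ran from 63.3 over 90.01 to 117 TPM in WT mice and from 52.8 over 69.0 to 125.6 TPM in *Brd1*+/- mice. With FLX it ran from 59.4 over 91.3 to 146 TPM in WT mice and from 44.7 over 66.9 to 86.3 TPM in *Brd1*+/- mice. The 2 medians of drug-treated WT mice were the highest, and no pair of groups was free of overlap.

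*Gabrd*, the delta subunit, ran from 6.92 over a median of 15.04 to 177 TPM in WT vehicle mice and from 1.67 over 13.5 to 147 TPM in *Brd1*+/- vehicle mice. With IMN it ran from 1.38 over 11.4 to 131 TPM in WT mice and from 0.572 over 15.01 to 146 TPM in *Brd1*+/- mice. With FLX it ran from 0.473 over 12.5 to 44.7 TPM in WT mice and from 9.43 over 13.5 to 131 TPM in *Brd1*+/- mice. The group medians lay close together while single libraries within a group differed by orders of magnitude. As a share of all 19 subunits *Gabrd* went from 0.0445% in WT FLX 1 to 22.3% in WT vehicle 3.

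The genotypes were compared to ask whether reduced *Brd1* expression altered the subunits. Each member was tested with limma on log2(TPM + 0.1) among all genes, and an adjusted *p* under 0.05 was called. In vehicle mice 0 of the 7 members were called, against 0.708% of 24279 genes tested, and 0 members had an unadjusted *p* under 0.05, against 8.52% of genes. The differences ran from -0.31 for *Gabrd* (95% interval -2.26 to 1.64) to 0.11 for *Gabrb2* (-0.31 to 0.54). Without the 13 libraries with *Adora2a* above 100 TPM that of *Gabrd* was -1.01 (SE 0.59, unadjusted *p* = 0.112) and that of *Gabrb2* had the other sign (-0.20), with 0 members called. Oligodendrocyte markers moved with this contrast: 8 of 8 were higher in *Brd1*+/- vehicle mice at an unadjusted *p* under 0.05, 0 were called, and their part in the differences was not tested. In IMN mice 0 members were called, against 0.017% of 23581 genes, and 0 had an unadjusted *p* under 0.05, against 3.58%. The largest difference there was 0.57 for *Gabra4* (95% interval -0.41 to 1.56), which was 0.49 without the 13 libraries, where *Gabrd* was at -0.22 in place of 0.29 and *Gabra3* at 0.20 in place of -0.12.

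In FLX mice 0 members were called as well, against 1.54% of 23635 genes. At an unadjusted *p* under 0.05 there were 2 of 7 members, against 16.6% of genes. *Gabrb2* had a lower level in *Brd1*+/- FLX mice by -0.53 (SE 0.17, unadjusted *p* = 0.00517, limma adjusted *p* = 0.111), and *Gabra4* had a higher one by 0.81 (SE 0.35, unadjusted *p* = 0.0323, limma adjusted *p* = 0.246). The adjusted *p* of *Gabrb2* became 0.0417 without WT FLX replicate 6, whose 59.4 TPM was the lowest of its group. *Gabrd* differed by 1.40 with an interval of -0.38 to 3.19, and the other 4 members by -0.34 to 0.31. Over all 3 treatments 0 members were called between the genotypes, against 0.286% of genes. *Gabrb2* alone had an unadjusted *p* under 0.05 (-0.24, SE 0.11, unadjusted *p* = 0.0314, limma adjusted *p* = 0.486), against 9.12% of genes. The difference of *Gabrb2* was -0.33 without the 13 libraries (SE 0.11, unadjusted *p* = 0.00379, limma adjusted *p* = 0.164), and *Gabra2*, at 0.25, then had an unadjusted *p* of 0.0469 (limma adjusted *p* = 0.395).

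The tissue markers moved with the FLX contrast. The thalamic and hypothalamic list summed to 13.8 to 233 TPM, median 117, in WT FLX mice and to 6.75 to 37.5 TPM, median 17.97, in *Brd1*+/- FLX mice, with 2 of its 7 tested genes called lower in *Brd1*+/- mice (*Lhx5* and *Fezf1*). Striatal markers summed to 294 to 3323 TPM in WT FLX mice and to 285 to 11410 TPM in *Brd1*+/- FLX mice. With the striatal, oligodendrocyte and choroid plexus levels as covariates the difference of *Gabra4* was 0.54 and that of *Gabrd* 1.11, while that of *Gabrb2* was -0.56. Without the 13 libraries with *Adora2a* above 100 TPM the 3 differences were 0.55, 1.03 and -0.45. *Gabrb2* then kept an unadjusted *p* under 0.05 (0.021), and *Gabra4* did not (0.064). *Gabra2* was at 0.40 there (unadjusted *p* = 0.0419, limma adjusted *p* = 0.304) in place of 0.31. The part of these cell types in the differences was not tested.

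The drugs were compared with vehicle within each genotype. In WT mice 0 members were called with IMN, against 0% of 23644 genes, and 0 had an unadjusted *p* under 0.05, against 4.58% of genes. Without the 13 libraries with *Adora2a* above 100 TPM 2 did, *Gabra4* (-0.73, unadjusted *p* = 0.048, limma adjusted *p* = 0.332) and *Gabrb2* (0.26, unadjusted *p* = 0.0153, limma adjusted *p* = 0.295). The 4.58% is from the fit of all libraries and is no background for these 2. The share of all genes with an unadjusted *p* under 0.05 was not computed without the 13 libraries in any comparison. With FLX 0 members were called, against 0.335% of genes, and 2 had an unadjusted *p* under 0.05, against 16.8% of genes. These were *Gabra4*, lower by -0.89 (SE 0.32, unadjusted *p* = 0.0118, limma adjusted *p* = 0.169), and *Gabrb2*, higher by 0.53 (SE 0.22, unadjusted *p* = 0.0276, limma adjusted *p* = 0.234). These were -0.74 and 0.17 without the 13 libraries, and -0.47 and 0.47 with the marker covariates. Without the 13 libraries *Gabra3* was at -0.30 in place of 0.37 (unadjusted *p* = 0.00592, limma adjusted *p* = 0.08). *Gabra5* was then at -0.55 (unadjusted *p* = 0.0159, limma adjusted *p* = 0.123) and *Gabra2* at -0.30 (unadjusted *p* = 0.032, limma adjusted *p* = 0.175). *Gabra4* kept an unadjusted *p* under 0.05 (0.0183), and *Gabrb2* did not (0.255). Other tissue markers moved with this contrast. Oligodendrocyte markers were higher with FLX in 8 of 8 genes, 7 of them at an unadjusted *p* under 0.05, and summed to 624 to 10930 TPM, median 1898, in WT vehicle and to 1915 to 8406 TPM, median 5678, in WT FLX mice. Thalamic and hypothalamic markers were higher in 8 of 8 genes, 4 of them at an unadjusted *p* under 0.05, with median sums of 41.2 and 117 TPM. Pallial markers were higher in 0 of 6 genes, with 2 at an unadjusted *p* under 0.05. Immediate-early genes, which report recent neuronal activity, were higher in 0 of the 6 tested, with 2 called lower. Their part in the differences was not tested.

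In *Brd1*+/- mice 0 members were called with IMN, against 0.776% of genes, or with FLX, against 0.731% of genes, and in neither case did a member have an unadjusted *p* under 0.05, against 9.3% and 6.94% of genes. All 14 differences lay between -0.16 and 0.31, and the widest interval was that of *Gabrd* with IMN, from -2.57 to 2.25. Without the 13 libraries with *Adora2a* above 100 TPM the differences ran from -0.28 (*Gabrd*) to 0.27 (*Gabra3*) with IMN, while with FLX *Gabrd* was at 1.05 (SE 0.56, unadjusted *p* = 0.0886, limma adjusted *p* = 0.75) in place of 0.28 and the other 6 members at -0.15 to 0.23. Oligodendrocyte markers were higher in 0 of 8 genes with either drug. With IMN 8 of them and with FLX 0 had an unadjusted *p* under 0.05, and 0 were called. Their part in the differences was not tested. Between FLX and IMN 0 members were called, in WT mice against 0% and in *Brd1*+/- mice against 0% of genes, and 0 members had an unadjusted *p* under 0.05 in either genotype, against 4.78% and 2.99% of genes. *Gabrb1* had an unadjusted *p* of 0.0492 in *Brd1*+/- mice without the 13 libraries (-0.31, limma adjusted *p* = 0.682). Over both drugs and genotypes 0 members were called against vehicle, at 1.04% of genes, and 0 had an unadjusted *p* under 0.05, against 7.78%. Vehicle mice carried sample codes of another range than drug mice, so handling that followed the codes cannot be told apart from the drugs. Among drug mice the highest codes were all WT and those next below all *Brd1*+/-. Handling that followed the codes can thus not be fully told apart from genotype in the drug groups or the interactions.

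Whether the drug effect differed between genotypes was tested as an interaction, which uses the same vehicle mice as the comparisons above. For IMN 0 members were called, against 0.536% of genes, and 0 had an unadjusted *p* under 0.05, against 9.24%. Without the 13 libraries with *Adora2a* above 100 TPM *Gabra3* did, at 0.52 (unadjusted *p* = 0.0414, limma adjusted *p* = 0.353). For FLX 0 members were called, against 1.71% of genes, while *Gabra4* (1.06, SE 0.49, unadjusted *p* = 0.0391, limma adjusted *p* = 0.267) and *Gabrb2* (-0.65, SE 0.27, unadjusted *p* = 0.0227, limma adjusted *p* = 0.211) had an unadjusted *p* under 0.05, against 16.8% of genes. With the marker covariates these 2 interactions were 0.40 and -0.64, and without the 13 libraries they were 0.97 and -0.26. The FLX interaction of *Gabrd* was 1.72 with a 95% interval from -0.94 to 4.37, and 2.04 without the 13 libraries. Oligodendrocyte markers were lower in this interaction in 8 of 8 genes, all at an unadjusted *p* under 0.05, and immediate-early genes higher in 7 of 7, with 2 called. In the IMN interaction oligodendrocyte markers were also lower in 8 of 8 genes, all at an unadjusted *p* under 0.05. Immediate-early genes were higher there in 7 of 7, 4 of them at an unadjusted *p* under 0.05, with 0 called in either list. Their part in the interactions was not tested.

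**Figure D2:**
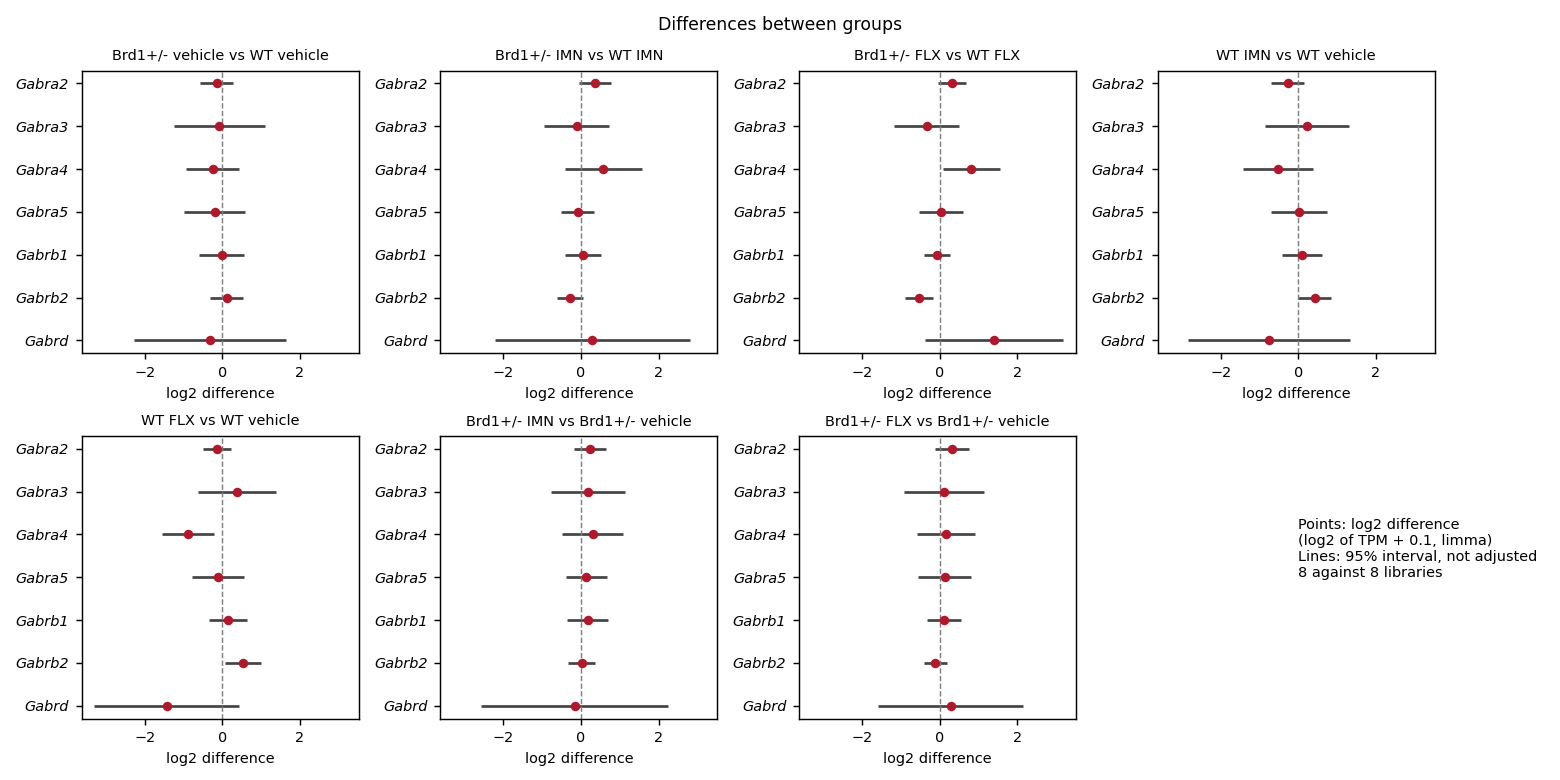
log2 difference of each member (points) with its unadjusted 95% interval (lines) in the 7 genotype and drug comparisons of 8 against 8 libraries. The intervals of *Gabrd* are the widest in each panel, and those that leave out 0 are *Gabra4* and *Gabrb2* in *Brd1*+/- FLX against WT FLX mice and in WT FLX against WT vehicle mice.

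The rest of the receptor was read beside the members. Of the other 12 subunits 8 passed the filter in the FLX genotype contrast, 5 had an unadjusted *p* under 0.05 and 1 was called, in the lower direction. In the other 12 comparisons 0 of these subunits were called by limma, with 0 to 6 at an unadjusted *p* under 0.05.

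Of the 8 genes of GABA synthesis, release, uptake and breakdown, 1 was called lower in *Brd1*+/- FLX than in WT FLX mice and 3 were called lower in the FLX interaction, against 1.54% and 1.71% of all genes called in either direction. At an unadjusted *p* under 0.05 there were 4 and 6 of the 8, against 16.6% and 16.8% of genes. *Slc6a11*, the GABA transporter GAT-3 of astrocytes and known from thalamus and hypothalamus, differed by -1.45 between the genotypes (SE 0.30, limma adjusted *p* = 0.0292) and by -2.38 in the interaction (SE 0.52, limma adjusted *p* = 0.0123). In the interaction *Aldh5a1* (-0.68, limma adjusted *p* = 0.0285) and *Abat* (-0.87, limma adjusted *p* = 0.0477), enzymes of GABA breakdown, were called too. None of these calls held without the 13 libraries with *Adora2a* above 100 TPM: *Slc6a11* was at -1.15 between the genotypes (limma adjusted *p* = 0.0937), and in the interaction *Slc6a11* was at -1.99 (0.0833), *Abat* at -0.90 (0.12) and *Aldh5a1* at -0.64 (0.134). Of 11 planned other settings the call was lost in 10 for *Abat*, in 4 for *Aldh5a1* and in 1 for *Slc6a11*, and leaving out each of 32 libraries ended it 23, 9 and 0 times. In the genotype contrast *Slc6a11* lost its call in 4 settings and without 7 of 16 libraries, each in turn. The 15 genes of receptor assembly, trafficking and scaffold, the 2 GABA-B receptor genes and the 2 chloride transporters *Slc12a2* and *Slc12a5* had 0 called by limma in all 13 comparisons, with at most 3, 0 and 1 at an unadjusted *p* under 0.05.

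Since most of the variation of each member lay within groups, the members were set against the marker lists across libraries after centring each group. *Gabra4* and *Gabrd* had higher levels where striatal markers were high, with *r* = 0.83 (rho = 0.72) and *r* = 0.82 (rho = 0.75) over 48 libraries. *Gabrb1* (*r* = -0.82, rho = -0.66) and *Gabra3* (*r* = -0.79, rho = -0.63) had lower levels there. Both coefficients of each of these 4 relations had a permutation *p* of 1e-05 within groups, the smallest that 100000 resamples can give, and an adjusted *p* of 0.00012 over the 84 relations computed for 7 members and 12 marker lists. *Gabra2* (*r* = -0.58, rho = -0.50, permutation adjusted *p* = 0.00066 and 0.00549) and *Gabra5* (*r* = -0.57, rho = -0.49, permutation adjusted *p* = 0.00056 and 0.00534) had the same sign as *Gabra3*. *Gabrb2* did not pass (*r* = -0.26, rho = -0.20, permutation adjusted *p* = 0.164 and 0.307). Without the 2 libraries farthest from the median list level the 6 coefficients were 0.80, 0.79, -0.78, -0.75, -0.56 and -0.53 in that order, and within the 4 ranges of sample codes (6 to 18 libraries) each kept its sign.

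**Figure D3:**
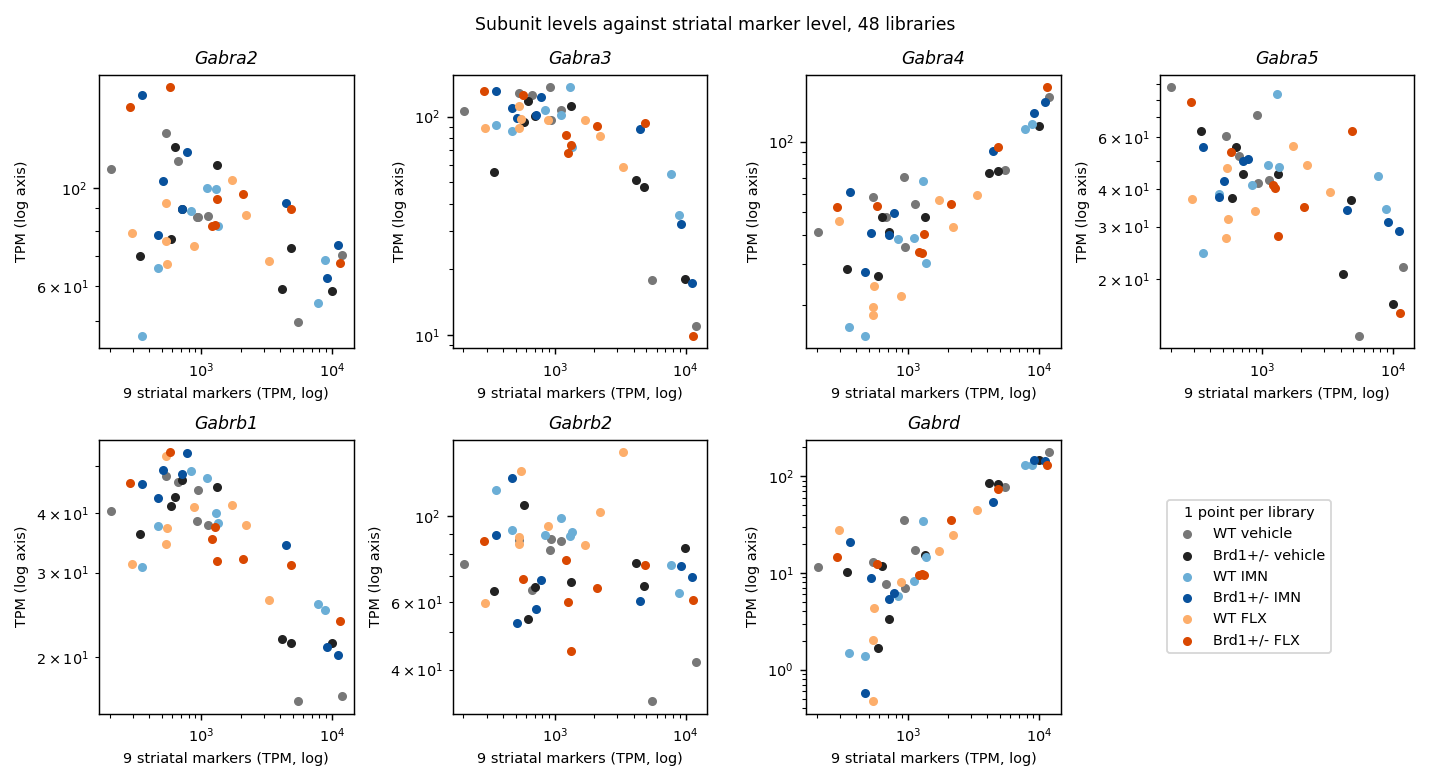
Level of each member (TPM, log axis) against the summed TPM of 9 striatal markers (log axis), 1 point per library, coloured by group. Towards the right *Gabra4* and *Gabrd* reach their highest values and *Gabra3* and *Gabrb1* their lowest, in libraries of several groups.

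The striatal relations were much smaller without the libraries richest in striatal markers, a division chosen after seeing the data. Within the 35 libraries with *Adora2a* up to 100 TPM, centred anew by group, *r* with the striatal list was 0.36 for *Gabra4*, 0.35 for *Gabrd*, -0.11 for *Gabra3* and -0.07 for *Gabrb1*. In those 35 libraries *Gabrd* and *Gabra4* had lower levels where the thalamic and hypothalamic list was high (*r* = -0.81 and -0.77) and higher levels where that of pallial glutamatergic neurons was (*r* = 0.63 and 0.70). Within the 13 other libraries, not centred because groups held 1 to 3 of them, *r* with the striatal list was 0.95 for *Gabrd*, 0.93 for *Gabra4*, -0.79 for *Gabra3* and -0.46 for *Gabrb1*. Single libraries show the contrast. WT vehicle 3, with the highest striatal level, held 177 TPM of *Gabrd* and 154.98 of *Gabra4* beside 11.0 of *Gabra3*, while WT FLX 1 held 0.473 and 18.1 beside 112. Both libraries were low in *Slc17a7* (6.56 and 3.42 TPM).

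Pairs of members differed in how steady their relation was, given here as descriptions over libraries that share tissue content. *Gabra4* and *Gabrd* had *r* = 0.93 over 48 libraries, 0.83 in the 35, 0.85 in the 13 and 0.89 to 0.97 within the 6 groups. *Gabra3* and *Gabrb1* had 0.87, 0.56 and 0.75, and *Gabra2* and *Gabrb1* had 0.77, 0.67 and 0.63. *Gabra4* and *Gabrb1*, which start beside each other on chromosome 5, had -0.64 over 48 libraries and 0.19 in the 35. The pair *Gabra3* and *Gabra4* likewise changed from -0.63 to 0.46, so neither inverse relation was seen in the 35 libraries.

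*Gabrb2* followed none of the other members closely, with *r* between -0.33 and 0.38 to each of them. *Gabrq*, the theta subunit of hypothalamic and brainstem neurons, had *r* = -0.86 with *Gabrd* and 0.80 with *Gabrb1*, which were -0.63 and 0.41 in the 35 libraries with *Adora2a* up to 100 TPM.

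**Figure D4:**
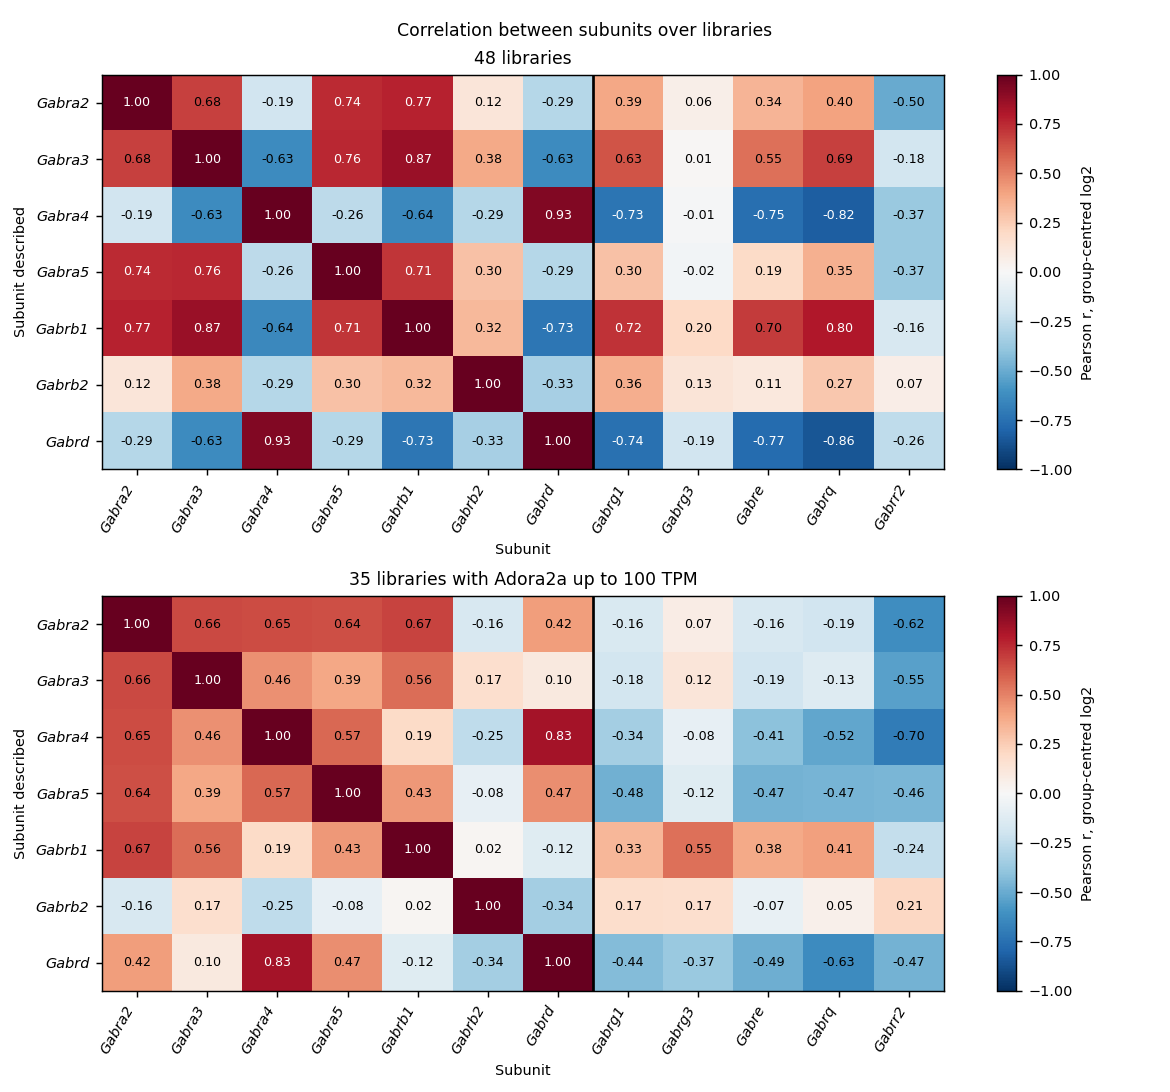
Pearson *r* of group-centred log2(TPM + 0.1) between each member (rows) and the members and 5 other subunits (columns, members left of the line), over 48 libraries (top) and over the 35 with *Adora2a* up to 100 TPM (bottom). *Gabra4* with *Gabrd* stays high in both panels (0.93 and 0.83), while *Gabra4* with *Gabra3* and *Gabrb1* changes sign.

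Among all 19222 genes with a mean of at least 1 TPM, those with the pattern most like each member, 3 for each, over the 48 libraries were named by Pearson *r* of the centred values. For *Gabra4* they were *Ano3* (0.99), *Ppp3ca* (0.98) and *Dgat2* (0.97), and for *Gabrd* they were *Arpp21* (0.96), *Tesc* (0.96) and *Actn2* (0.95). For *Gabra3* they were *Gdap1l1* (0.98), *Tubb2a* (0.97) and *Atp6v1a* (0.97), and for *Gabrb1* they were *Pak3* (0.96), *Prkar1a* (0.95) and *Fem1b* (0.94). For *Gabra2* they were *Gria1* (0.90), *Dync1li1* (0.89) and Gm32444 (0.87), and for *Gabra5* they were *Pde1a* (0.87), *Trappc1* (0.86) and *Cnrip1* (0.85). Of those for *Gabrb2*, *Ppa1* (0.76) is given. No member was among the 3 nearest of another.

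Other cell types accompanied some members. *Gabra2* had lower levels where oligodendrocyte markers were high (*r* = -0.64, rho = -0.58, permutation adjusted *p* = 0.00021 and 0.00101), and *Gabra5* higher levels where pallial glutamatergic markers were (*r* = 0.62, rho = 0.54, permutation adjusted *p* = 0.000382 and 0.00168). *Gabra4* (*r* = -0.64, rho = -0.65, permutation adjusted *p* = 0.00012 for both) and *Gabrd* (*r* = -0.48, rho = -0.55, permutation adjusted *p* = 0.0041 and 0.000747) had lower levels where astrocyte markers were high. The thalamic and hypothalamic list gave the strongest relation of all 84, with *Gabrd* (*r* = -0.89, rho = -0.89, permutation adjusted *p* = 0.00012 for both). Without the 2 libraries farthest from the median list level these 5 coefficients *r* were -0.60, 0.54, -0.63, -0.49 and -0.87, in the 35 libraries with *Adora2a* up to 100 TPM they were -0.86, 0.49, -0.34, -0.07 and -0.81, and each kept its sign within the 4 ranges of sample codes. The relation with oligodendrocyte markers was not particular to *Gabra2*. Over 48 libraries *r* ran from -0.48 (*Gabra5*) to -0.12 (*Gabrb2*) in the other members. In the 35 libraries it was -0.83 for *Gabra3*, -0.63 for *Gabra4*, -0.62 for *Gabra5*, -0.53 for *Gabrb1*, -0.34 for *Gabrd* and -0.02 for *Gabrb2*.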

How the data were processed

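Punches of right amygdala were sequenced as single-end reads after TruSeq library preparation, and the values the authors deposited are TPM, 1 column per library. Per the submitters' processing notes and the methods, reads were checked and trimmed with FastQC and Trimmomatic, aligned to GRCm38 with HISAT2 2.1.0 and quantified with StringTie 1.3.4, and the authors compared groups with edgeR on counts, which were not used here. The methods give a common minimum number of reads, but the depth of single libraries cannot be read from TPM, so neither counting intervals nor detection limits are given. Columns summed to 999524 to 999772. As TPM are shares, a rise of some genes lowers the others. Group, dose and replicate came from the sample labels. The series' design text names striatum, with caudate putamen, and anterior cingulate cortex, and another sequencer than the methods do. The labels, which give amygdala, were followed. Symbols and coordinates (1-based) came from GENCODE M21, which named 99.6% of the IDs.

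Tests ran on log2(TPM + 0.1), a scale that understates changes of low genes. Genes with at least 0.1 TPM in at least 8 libraries of a fit were tested, two-sided, with limma 3.58.1 (R 4.3.3, eBayes with a trend, no covariates) on the libraries compared, with Benjamini-Hochberg adjustment over all genes. The code was tested on simulated data. Correlations across libraries used group-centred values and 100000 permutations within groups. The level of a marker list was the mean log2(TPM + 0.1) of its genes. Named genes were the 7 subunits, *Brd1*, the 3 genes most like each member, and markers beside a result. *Gabra6*, *Gabrq* and the GABA pathway genes given with values were chosen after their values were seen. The members and all lists were chosen with earlier results of these data known. The alternatives are given in the closing section. Results for some subunits are not reported here. That each library is a separate mouse comes from the labels' mouse codes and the methods.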

Additional observations from a re-analysis of the deposited data

Results flagged for a closer look

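In 4 of 42 sets of 8 values (7 members in 6 groups) 1 library lay so far from the rest that its gap to the nearest library, divided by the range of the group, exceeded Dixon's 95% critical value for 8 values. Chance marks about 1 set in 20 where values are normal and sets independent. The sets here were TPM with no log taken, from members measured in the same libraries, so that rate need not hold. *Gabra4* was at 154.98 TPM in WT vehicle 3, against 35.5 to 75.5 TPM in the other 7 libraries of that group (gap 0.665 of the range), and *Gabrd* at 177 TPM in the same library, against 6.92 to 77.5 TPM (0.585). *Gabra4* was at 171.17 TPM in *Brd1*+/- FLX 2, against 33.6 to 94.7 TPM (0.556). These 2 libraries held the highest striatal marker levels of all 48, with sums of 11930 and 11410 TPM, and the part of striatal tissue in the values was not tested. *Gabra5* was at 83.3 TPM in WT IMN 1, against 24.4 to 48.3 TPM (0.594).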

How the results depend on the processing

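In all 13 comparisons 0 members were called under each of the 11 planned settings that could be fitted (pseudocounts of 0.01 and 1, no filter or 1 TPM in 8 libraries, scaling by median ratios or quantiles, an eBayes fit with no trend, all 48 libraries in 1 fit, the replicate block, a term for the sample code range, and marker levels as covariates), and in the fit without the 13 libraries with *Adora2a* above 100 TPM, which was chosen after seeing the data. The 2 averaged comparisons use all 48 libraries in any case. The term for the sample code range put the highest codes (all WT) and those next below (all *Brd1*+/-) in the same range, so it did not separate them. Leaving out each library gave 0 to 1 called members in *Brd1*+/- FLX against WT FLX mice, where *Gabrb2* was called without WT FLX replicate 6 (-0.63, limma adjusted *p* = 0.0417), and 0 in the other comparisons. Over the planned and added settings the lowest adjusted *p* of any member was 0.0704, for *Gabrb2* in that contrast with the replicate block. Same-numbered libraries did not deviate together (*r* from -0.35 to 0.65, never above 0.1 in all 8 pairs of a comparison), so the numbers were not taken to pair the mice, and the block moved no count of called members. No member's direction was called, and 69 of 1078 differences under these settings had the other sign, 28 with marker covariates, 27 without the *Adora2a*-rich libraries, 6 with quantile normalization, 5 with median-ratio scaling and 3 with the code term. With quantile normalization the median of all genes in the FLX interaction was 0.01 in place of -0.10. The share of all tested genes called ranged under these settings from 0.058% to 1.46% in the vehicle genotype contrast (0.708% as reported), 0.0119% to 0.0254% with IMN (0.017%), 0% to 2% with FLX (1.54%), 0% to 2.68% for FLX in WT mice (0.335%), 0.0366% to 1.57% for IMN (0.776%) and 0.0533% to 1.49% for FLX (0.731%) in *Brd1*+/- mice, 0.074% to 0.741% in the IMN interaction (0.536%), 0.11% to 1.8% in the FLX interaction (1.71%), and 0.0808% to 0.408% for genotype (0.286%) and 0.124% to 1.49% for drug (1.04%) over all mice. Without single libraries it ranged from 0.299% to 2.09% in the FLX genotype contrast from 0.00429% to 4.11% for FLX in WT mice, from 0.336% to 1.46% in the vehicle genotype contrast, from 0.374% to 0.725% for IMN and 0.368% to 0.69% for FLX in *Brd1*+/- mice, from 0.932% to 2.62% in the FLX interaction and from 0.187% to 0.416% for genotype over all mice. TPM gives no depth, so the limit for *Gabrd* near 1 TPM is unknown.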
